A study of Mus musculus with 8 samples.

Results

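Of the 1761 peaks of RNA polymerase II with phosphorylated Ser5 (Pol II pSer5) in lung smooth muscle cells (SMCs), 479 were centred between 0 and 500 nt downstream of the transcription start site (TSS) of the gene assigned to them. These TSS-proximal peaks were chosen by position alone: the centre of each peak was set against the 5′ end of its gene in the deposited table, taking the gene's strand into account. Of the other peaks, 534 were centred upstream of the TSS, 342 lay inside the gene beyond 500 nt, and 406 had no assigned gene.

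The study examined TET3, a dioxygenase that oxidizes 5-methylcytosine to 5-hydroxymethylcytosine, and compared Pol II pSer5 occupancy in lung SMCs with and without it. Chromatin immunoprecipitation with sequencing (ChIP–seq) was done on sorted cells after 1 h with DRB at 4 °C, with 2 immunoprecipitated libraries of Ctrl (labelled WT) and 2 of Tet3smKO:T (labelled Mut). The table holds no values for the 2 input libraries per genotype. Tet3smKO:T mice carried floxed Tet3 alleles, a tamoxifen-inducible Cre (ERT2Cre) under the α-SMA promoter and a tdTomato reporter at ROSA26, whereas Ctrl mice carried Cre and/or tdTomato without the floxed alleles. All mice were on a C57BL/6 background, received tamoxifen as adults, and had their lung cells depleted of CD45+ and Ter-119+ cells before sorting for tdTomato. The deletion is therefore limited to cells in which the α-SMA promoter was active at the time of tamoxifen. The methods call replicates biological in general, but the age at harvest, and whether a library came from 1 animal or from pooled animals, is not given in the sources used here, so p-values measure the spread between these libraries.

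Pol II is phosphorylated at Ser5 of its C-terminal repeats by TFIIH as it leaves the promoter, and it then pauses a short distance downstream, where the negative elongation factor NELF and the factor DSIF hold it. Release into productive elongation needs P-TEFb, a kinase that phosphorylates NELF, DSIF and the polymerase itself. DRB inhibits P-TEFb, so that Pol II pSer5 is retained where it initiated or paused, and the start of a gene is where promoter-proximal pausing is seen in mammalian cells.

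The centres crowded towards the TSS. The distance from the TSS had quartiles of 23.75, 57 and 158 nt, and the farthest member lay at 497.5 nt. Of the 479 peaks, 46.6% were centred within 50 nt, 64.7% within 100 nt and 78.1% within 200 nt. Their widths ran from 118 to 614 nt (median 202 nt, and 197 nt over all peaks), and 321 of them contained the TSS itself while 158 lay wholly downstream of it. The limit at 0 thus divides a single crowd of peaks. Smarcc1 (a SWI/SNF subunit), Hint3 and Vps52 were centred at −0.5 nt and fell outside, whereas Plaa at 0 nt and Emg1 and Cfap97 at 0.5 nt fell inside. In normalised reads, given here and below as replicates 1 and 2 of a genotype, the peak of Plaa had 10 and 8 in Ctrl against 15 and 16 in Tet3smKO:T, and that of Smarcc1 15 and 10 in Ctrl against 13 and 14 in Tet3smKO:T. At the outer limit, Fgfbp3 at 497.5 nt lay just inside, and Cpeb2 at 500.5 nt and Gm13277 at 502 nt just outside.

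**Figure D1:**
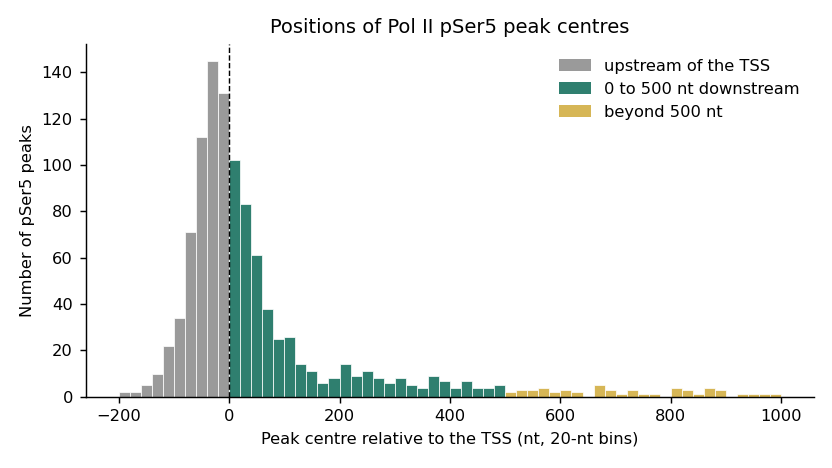
Number of Pol II pSer5 peak centres in 20-nt bins by position relative to the TSS (x axis in nt, negative upstream). The highest bin, with 145 centres, lies 20 to 40 nt upstream, the bin from 0 to 20 nt holds 102, and counts decline through the 479 peaks between 0 and 500 nt (green).

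The stretch just upstream of the TSS is shown for peaks that carry the results below: 2 of the 4 highest peaks (Eef1a1 and Tpt1), 2 that were higher in both Tet3smKO:T libraries (Pdcd10 and Vapb), 2 that were lower (Nelfa and Bzw1), and 2 genes of the initiation machinery (Polr2e and Ccnc). Each runs 5′ to 3′ on the strand of the gene from −120 to −1 relative to the TSS of the table, was read from the RefSeq genome GRCm38.p6, and overlaps no exon annotated by GENCODE M21 or RefSeq. Capitals mark matches, on either strand, to 1 of 11 short motifs that were searched.
Eef1a1, chr9:78481725-78481844, minus strand: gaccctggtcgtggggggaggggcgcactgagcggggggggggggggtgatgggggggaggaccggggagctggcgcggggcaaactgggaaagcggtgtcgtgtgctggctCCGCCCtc
Tpt1, chr14:75844973-75845092, plus strand: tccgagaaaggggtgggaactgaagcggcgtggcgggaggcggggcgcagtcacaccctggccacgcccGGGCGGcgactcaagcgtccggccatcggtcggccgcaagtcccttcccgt
Pdcd10, chr3:75556857-75556976, minus strand: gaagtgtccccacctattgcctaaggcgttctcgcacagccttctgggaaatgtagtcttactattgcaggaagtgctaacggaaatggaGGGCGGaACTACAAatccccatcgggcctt
Vapb, chr2:173737391-173737510, plus strand: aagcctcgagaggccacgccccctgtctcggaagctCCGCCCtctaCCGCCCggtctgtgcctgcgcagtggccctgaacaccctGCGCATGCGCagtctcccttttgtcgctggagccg
Nelfa, chr5:33936414-33936533, minus strand: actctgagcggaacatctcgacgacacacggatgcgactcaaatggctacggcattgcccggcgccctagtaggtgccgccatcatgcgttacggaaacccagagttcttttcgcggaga
Bzw1, chr1:58392778-58392897, plus strand: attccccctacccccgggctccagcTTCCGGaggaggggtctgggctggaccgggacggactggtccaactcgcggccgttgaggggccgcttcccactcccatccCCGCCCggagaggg
Polr2e, chr10:80039796-80039915, minus strand: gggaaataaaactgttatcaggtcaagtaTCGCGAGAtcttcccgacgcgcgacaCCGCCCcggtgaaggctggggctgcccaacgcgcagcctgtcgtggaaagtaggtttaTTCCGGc
Ccnc, chr4:21727581-21727700, plus strand: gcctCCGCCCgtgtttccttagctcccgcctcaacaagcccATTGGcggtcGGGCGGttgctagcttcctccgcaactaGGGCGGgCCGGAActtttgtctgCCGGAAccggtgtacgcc

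The capitals are GC boxes (GGGCGG or CCGCCC, the letters bound by Sp factors), CCAAT boxes (CCAAT or ATTGG), Ets cores (CCGGAA or TTCCGG), an NRF1 element (GCGCATGCG or CGCATGCGC, which overlap each other in Vapb), a ZNF143 element (ACTACAA or TTGTAGT) and the palindromic element TCTCGCGA or TCGCGAGA. The stretch of Ccnc held 6 such matches, that of Vapb 4, and that of Nelfa none. In the window from 250 nt upstream to 50 nt downstream of the TSS, a GC box was found for 61.2% of the 479 genes, against 35.7% of all 32851 promoter windows of the same length in the RefSeq table. The Ets core was found in 36.5% of the members' windows and in 14.9% of all windows, the NRF1 element in 6.68% and 1.75%, and the palindromic element in 5.01% and 0.995%. The CCAAT box was less frequent among the members, at 28.6% against 37.4%, as was the TATA box (TATAAA or TTTATA), at 7.93% against 13.6%. A cAMP response half-site (TGACGTC or GACGTCA) stood in 7.93% against 3.21% of all windows, an E-box (CACGTG) in 10.9% against 7.15%, and a YY1 element (AAGATGGC or GCCATCTT) in 3.55% against 2.75%. The ZNF143 element stood in 4.18% against 3.24% and the AP-1 element (TGACTCA or TGAGTCA) in 3.55% against 5.20%. The 32851 windows were not matched to the members in GC content, and how far base composition accounts for these shares was not tested. The genes of upstream peaks had larger shares than the members for the GC box (70.8%), the Ets core (47.6%), the NRF1 element (8.61%) and the palindromic element (6.37%) and a smaller one for the TATA box (3.18%), and the genes of intragenic peaks had 54.7% for the GC box and 19.9% for the Ets core. The windows of the members were set on the TSS of the table, which lay within 50 nt of a RefSeq start for most of the 367 members whose symbol is in the RefSeq table.

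The peaks lay in GC-rich sequence with many CpG dinucleotides. In the 200 nt around the centre, the median GC content was 69.5% and the median ratio of observed to expected CpG was 0.97, and 465 of 479 peaks (97.1%) had both a GC content over 50% and a ratio over 0.6. Peaks centred upstream of the TSS were alike in this (68% GC, ratio 0.95, 96.1% past both limits). The intragenic peaks beyond 500 nt had 61.5% GC and a ratio of 0.62, and 49.7% of them passed both limits. Across the 479 peaks the CpG ratio was hardly related to the difference between genotypes (Spearman's rho 0.04, a description over peaks that share their libraries). The quartile with the lowest CpG ratios had a median log2 difference of −0.01 and the quartile with the highest −0.05.

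By the GENCODE M21 annotation, the centre fell in an untranslated exon for 417 peaks (87.1%), in a coding exon for 21 and in an intron for 23. It fell in an exon annotated as neither coding nor untranslated for 17 and outside the gene for 1. The genes were 463 protein-coding genes and 16 others, 235 on the plus strand and 244 on the minus strand, and none was on X or Y, where the table had no assigned peak. Among the 105 members centred beyond 200 nt, 39 had another annotated start of the same gene within 50 nt and 54 within 100 nt. Over all members, 410 (85.6%) lay within 100 nt of some annotated start of their gene. Introns held, for example, the peaks of Chrac1, a histone-fold subunit of a chromatin accessibility complex, and Eif5a, a translation factor. Both are printed whole as examples of peaks free of annotated exons, with matches to the same motifs in capitals.
Chrac1, chr15:73090689-73090905, plus strand: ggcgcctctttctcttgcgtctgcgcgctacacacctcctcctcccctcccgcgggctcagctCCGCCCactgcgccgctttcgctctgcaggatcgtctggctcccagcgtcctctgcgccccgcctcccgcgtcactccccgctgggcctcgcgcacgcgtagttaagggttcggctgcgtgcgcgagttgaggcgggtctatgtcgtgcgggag
Eif5a, chr11:69921537-69921753, minus strand: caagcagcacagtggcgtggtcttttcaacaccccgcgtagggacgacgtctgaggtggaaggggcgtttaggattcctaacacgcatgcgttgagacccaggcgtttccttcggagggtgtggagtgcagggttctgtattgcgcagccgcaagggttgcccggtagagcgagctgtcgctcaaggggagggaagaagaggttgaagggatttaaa

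Chrac1 had 15 and 19 in Ctrl against 14 and 23 in Tet3smKO:T, which overlap. Eif5a had 10 and 10 in Ctrl against 13 and 16 in Tet3smKO:T, which do not overlap. The CpG-rich stretch of Chrac1 was centred 405 nt from the TSS of the table and 385 nt from the nearest annotated start, and that of Eif5a 313 nt downstream of the former and 259 nt upstream of another start.

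Each value is a read number normalised and rounded by the authors. Values of the TSS-proximal peaks were low, with a median of 14 in each of the 4 libraries and a median over peaks of 13.5 for the mean of the libraries. Reads behind the values were estimated from the spacing of the values in each library, without allowance for input subtraction. They came to 8458 and 5982 in the TSS-proximal peaks of Ctrl and 10575 and 6383 in those of Tet3smKO:T. On that estimate a value of 13 stands for 10.4 to 18.8 reads. Over the 479 peaks, log2 values of libraries of the same genotype correlated with r = 0.70 (Ctrl) and 0.68 (Tet3smKO:T), and those of libraries of different genotypes with r = 0.62 to 0.67. Cell identity could not be checked in these data, since none of 12 smooth muscle, 5 fibroblast, 5 pericyte, 8 epithelial, 5 endothelial and 6 leukocyte marker genes had an assigned peak.

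The comparison of Ctrl with Tet3smKO:T asked whether Pol II pSer5 near the TSS differs without TET3. No TSS-proximal peak differed between genotypes at an adjusted p of 0.05 (limma on log2(value + 1) over all 1761 peaks, Benjamini–Hochberg), and 0% of all peaks did. The smallest adjusted p of a member was 0.681. At an unadjusted p under 0.05, 11 members were higher and 11 lower in Tet3smKO:T, which is 2.30% of the members in each direction against 3.24% and 3.98% of all peaks. Both Tet3smKO:T libraries lay above both Ctrl libraries for 78 members (16.3%), against 17.1% of all peaks, and below them for 77 (16.1%), against 16.6%. These shares were near or under those of the whole table. A quasi-Poisson test on the estimated reads, the other tool run, called none of the members at an adjusted p of 0.05, and at an unadjusted p under 0.05 it called 31 members (6.47%) against 10.8% of all peaks. Without Ctrl replicate 1 the limma count of 22 became 35 (7.31% of the members against 10.1% of all peaks), and without Tet3smKO:T replicate 1 it became 39 (8.14% against 8.29%).

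The authors normalised the libraries on peaks, which sets the overall difference near 0, so a change shared by all peaks would not appear in these values, and the level of the TSS-proximal peaks can only be read against the other peaks. On this scale the median log2 difference (Tet3smKO:T minus Ctrl) was −0.02, with an interquartile range of −0.29 to 0.27, beside −0.02 over all peaks, −0.05 over upstream peaks and 0.06 over intragenic peaks. It was above 0 for 229 members and below 0 for 250. For comparison, the median shifts by 0.05 (SD) between libraries of the same genotype. Fewer cells with Pol II pSer5 at a gene and less of it per cell cannot be told apart in such values.

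**Figure D2:**
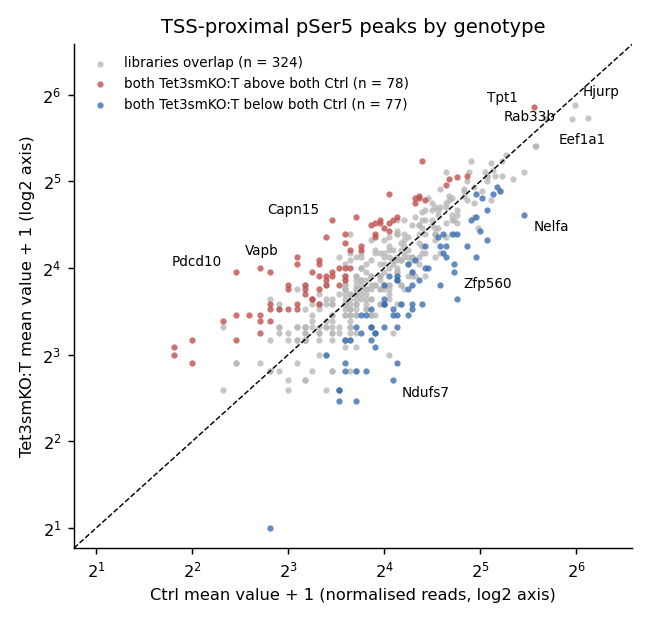
Mean value + 1 of the 479 TSS-proximal peaks in Ctrl (x) and Tet3smKO:T (y), both on log2 axes, with n = 2 libraries per genotype and the dashed line marking equality. The 78 peaks in red and 77 in blue, whose libraries did not overlap, lie on both sides of the line, and Nelfa and Ndufs7 are below it while Pdcd10, Vapb and Capn15 are above.

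TSS-proximal peaks held 29.1% and 27.6% of the summed values in the Ctrl libraries and 28.4% and 28.8% in the Tet3smKO:T libraries. The means were 28.4% ± 1.01 and 28.6% ± 0.24 (SD, n = 2), and the libraries overlapped (exact permutation test, two-sided, p = 1). The log2 ratio of the summed TSS-proximal to the summed upstream values was −0.252 and −0.250 in Ctrl against −0.212 and −0.206 in Tet3smKO:T. Both Tet3smKO:T libraries thus lay above both Ctrl libraries, by a difference of 0.04 on the log2 scale, and the exact permutation test gave p = 0.333, the smallest value that 2 against 2 libraries allow. The mean distance from the TSS weighted by value was 107 and 112 nt in Ctrl against 111 and 108 nt in Tet3smKO:T, with no separation (exact permutation test, p = 1).

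The difference between genotypes was small at each distance from the TSS. The 223 peaks within 50 nt had a median log2 difference of −0.08, the 87 from 50 to 100 nt one of 0.02, and the 64 from 100 to 200 nt one of 0.10. Beyond that, the 48 peaks from 200 to 300 nt had −0.06, the 33 from 300 to 400 nt 0.04, and the 24 from 400 to 500 nt 0.01. In each bin the interquartile range included 0. Peaks within 50 nt carried 49.3% and 47.3% of the TSS-proximal signal in Ctrl against 46.9% and 47.6% in Tet3smKO:T, and these libraries overlapped.

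**Figure D3:**
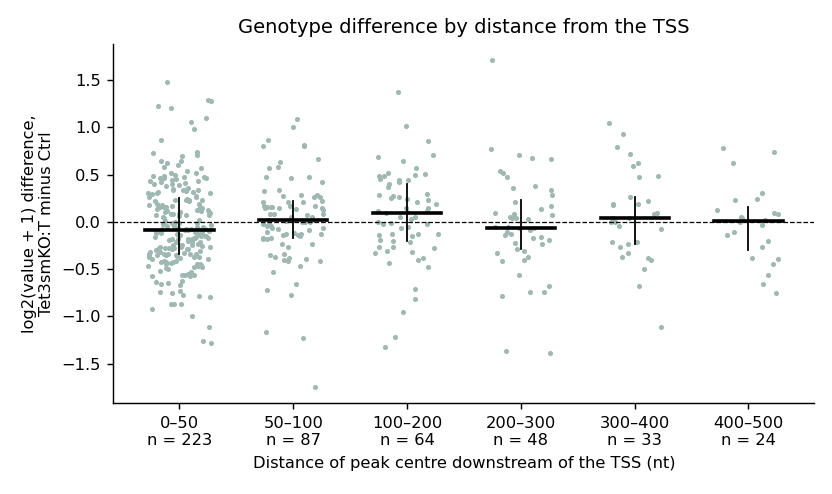
Difference in log2(value + 1), Tet3smKO:T minus Ctrl, of each TSS-proximal peak (points) by distance of its centre from the TSS in nt. Thick bars are medians and thin bars interquartile ranges, which include 0 in all 6 bins.

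Spread narrowed with the level of a peak. In the lowest quartile, with mean values from 3.5 to 10.25, the interquartile range of the log2 difference was −0.35 to 0.50, and in the highest, with mean values from 19 to 60.25, it was −0.26 to 0.16. The medians of the 4 quartiles were 0.08, −0.05, −0.03 and −0.06 from the lowest to the highest. The most extreme differences belonged to low peaks. Frmd8os, a gene named as opposite-strand to Frmd8, had 8 and 4 in Ctrl against 1 and 1 in Tet3smKO:T (log2 difference −1.75 ± 1.62, SE). Oxnad1 had 8 and 0 in Ctrl against 11 and 7 in Tet3smKO:T (1.71 ± 1.21) and was the only member with a value of 0.

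A divergent gene, on the opposite strand with an annotated start within 1000 nt upstream, was present for 102 members (21.3%), at a median of 85 nt. The share was 23.4% for upstream and 9.65% for intragenic peaks. Members with and without such a start had median values of 14.4 and 13.2 and median log2 differences of 0.03 and −0.03. In the head-to-head pair of Hjurp and Trpm8 the starts lay 28 nt apart, in that of Fbxo45 and Wdr53 69 nt and in that of Unc50 and Coa5 36 nt, so reads of a peak can belong to either gene.

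The highest TSS-proximal peaks were those of Eef1a1 and Hjurp, each with a mean value of 60.25 over the 4 libraries. Eef1a1, which encodes the elongation factor that brings aminoacyl-tRNA to the ribosome, had 57 and 80 in Ctrl against 42 and 62 in Tet3smKO:T. Hjurp, the chaperone of the centromeric histone CENP-A, had 76 and 49 in Ctrl against 41 and 75 in Tet3smKO:T. The genotypes overlapped at both, and libraries of 1 genotype were further apart than the genotype means. Rab33b, a small GTPase of the Golgi, had 62 and 60 in Ctrl against 41 and 62 in Tet3smKO:T. Tpt1, the translationally controlled tumour protein, had 44 and 48 in Ctrl against 54 and 60 in Tet3smKO:T (log2 difference 0.30 ± 0.20, SE). Among the 10 highest peaks Tpt1 was the exception in that its genotypes did not overlap, and its adjusted p in limma was 0.716. Eef1a1 and Tpt1 have many processed copies in the mouse genome, and how reads that match several places were treated is not given in the sources used here.

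Herpud2, a membrane protein of the endoplasmic reticulum, had 54 and 46 in Ctrl against 45 and 59 in Tet3smKO:T. Eif4a2, an RNA helicase of translation initiation, had 51 and 43 in Ctrl against 39 and 44 in Tet3smKO:T. The septin Sept7, a component of cytoskeletal filaments, had 37 and 56 in Ctrl against 32 and 51 in Tet3smKO:T. The genotypes overlapped at these 3 peaks as well. Mettl23 (32 and 54 against 30 and 37), the transcription factor Tcf4 (41 and 34 against 42 and 35) and Cipc, a repressor of the circadian factor CLOCK (29 and 44 against 37 and 36), completed the list, in each case Ctrl before Tet3smKO:T and with overlap. The peaks of Mettl23 and Tcf4, 254 and 282 nt downstream of the TSS of the table, had their centres 23 and 61 nt upstream of another annotated start.

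**Figure D4:**
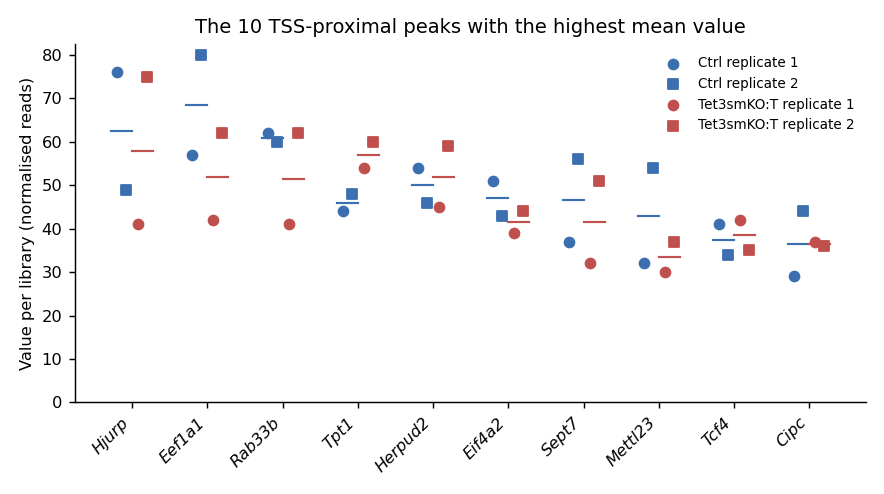
Values (normalised reads) of the 10 TSS-proximal peaks with the highest mean, with a point per library (circle, replicate 1; square, replicate 2) and lines at the mean of each genotype. Tpt1, at 44 and 48 in Ctrl against 54 and 60 in Tet3smKO:T, is the only gene of the 10 whose genotypes do not overlap.

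Among the members whose genotypes did not overlap, 6 were named as higher and 6 as lower in Tet3smKO:T by the smallest p in limma. None of the 12 passed the adjustment (adjusted p 0.681 for each). Capn15, of the calpain protease family, had 9 and 11 in Ctrl against 23 and 22 in Tet3smKO:T (log2 difference 1.10 ± 0.27, SE). Pdcd10, a gene of the cerebral cavernous malformation complex, had 5 and 4 in Ctrl against 12 and 17 in Tet3smKO:T (1.48 ± 0.39). Vapb, a membrane protein that tethers the endoplasmic reticulum to other organelles, had 5 and 6 in Ctrl against 12 and 18 in Tet3smKO:T (1.28 ± 0.37). All 3 peaks contained their TSS, and in each the genotypes were further apart than the libraries of 1 genotype. The start of 1700022N22Rik lay 12 nt from that of Capn15 in the opposite direction.

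Ep400, a chromatin-remodelling ATPase, had 17 and 14 in Ctrl against 26 and 30 in Tet3smKO:T (0.82 ± 0.26). The RNA helicase gene Ddx59 had 11 and 8 in Ctrl against 21 and 18 in Tet3smKO:T (0.98 ± 0.30). For Zdhhc21, a palmitoyltransferase, the values were 6 and 9 in Ctrl against 14 and 19 in Tet3smKO:T (1.05 ± 0.35). Zdhhc21 differed from the other 5 in its position, 365 nt downstream of the TSS of the table and 20 nt upstream of another annotated start.

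In the other direction, Ndufs7, a subunit of respiratory complex I, had 17 and 15 in Ctrl against 5 and 6 in Tet3smKO:T (log2 difference −1.39 ± 0.33, SE). Its unadjusted p of 0.00581 in limma was the smallest of the members. Fem1c, a substrate receptor of a ubiquitin ligase, had 18 and 15 in Ctrl against 6 and 7 in Tet3smKO:T (−1.22 ± 0.31). At both, the genotypes were further apart than the libraries of 1 genotype. The centre of the Ndufs7 peak lay 287 nt downstream of the TSS of the table and 41 nt upstream of another annotated start.

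Nelfa, which encodes a subunit of NELF, had 45 and 41 in Ctrl against 28 and 19 in Tet3smKO:T (−0.87 ± 0.27). The linker histone gene H1f0 had 23 and 23 in Ctrl against 14 and 12 in Tet3smKO:T (−0.78 ± 0.26). Its peak was centred 270 nt downstream of the TSS of the table and 32 nt downstream of another annotated start. Zfp560, a zinc-finger gene, had 25 and 26 in Ctrl against 16 and 13 in Tet3smKO:T (−0.78 ± 0.26). The start of 4921534A09Rik lay 57 nt from that of Zfp560 in the opposite direction. For Bzw1, a regulator of translation initiation, the values were 21 and 19 in Ctrl against 12 and 10 in Tet3smKO:T (−0.81 ± 0.27). Nelfa was the highest of these 12 peaks, with its centre 6.5 nt from the TSS.

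**Figure D5:**
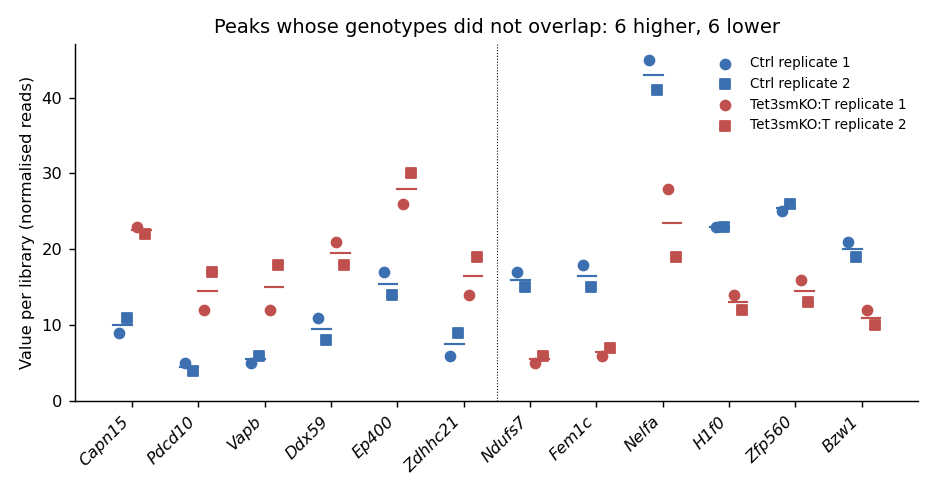
Values (normalised reads) per library of the 6 peaks named as higher (left of the dotted line) and the 6 named as lower in Tet3smKO:T, with lines at the mean of each genotype (n = 2). In each gene both libraries of 1 genotype lie above both of the other, and Nelfa has the highest values, 45 and 41 in Ctrl against 28 and 19.

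Genes of the transcription machinery are described first among the lists. Of 53 listed genes of Pol II and the general transcription factors, 8 had an assigned peak and 5 a TSS-proximal one, and their median log2 difference was −0.09. Tbpl1, a relative of the TATA-binding protein, had 30 and 35 in Ctrl against 16 and 22 in Tet3smKO:T (−0.76 ± 0.27), its centre lying 484.5 nt downstream of the TSS of the table and 6.5 nt upstream of another start. Gtf2e2, a subunit of TFIIE, had 21 and 20 in Ctrl against 17 and 19 in Tet3smKO:T. Tbpl1 and Gtf2e2 did not overlap between genotypes, while Polr2e (25 and 20 against 20 and 22) and Polr2h (12 and 8 against 11 and 11), subunits shared by the nuclear RNA polymerases, and Gtf2b, which encodes TFIIB (14 and 16 against 12 and 22), did. Of all peaks, 16.6% were lower without overlap, and a list of 5 genes is too small to be read against this share. Ccnc, the cyclin of the Mediator kinase module and the single member of the Mediator list, had 15 and 15 in Ctrl against 14 and 12 in Tet3smKO:T. Nelfa was the single member of the list of pausing and elongation factors, so no subunit of DSIF or P-TEFb could be compared in this interval. Of the genes of RNA cleavage, Cpsf1 had 14 and 6 in Ctrl against 5 and 7 in Tet3smKO:T and Cstf1 4 and 4 against 8 and 2, with overlap at both.

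Of the chromatin genes, 4 of 133 listed enzymes and remodellers had a TSS-proximal peak. Mbd1, which encodes a protein that binds methylated CpG, had 14 and 14 in Ctrl against 15 and 24 in Tet3smKO:T. The arginine methyltransferase gene Prmt7 had 14 and 11 in Ctrl against 18 and 17 in Tet3smKO:T. Ino80b, a subunit of the INO80 remodeller, had 12 and 11 in Ctrl against 16 and 14 in Tet3smKO:T. The genotypes did not overlap at these 3, and at Smarcd2, of the SWI/SNF complex, they did (5 and 4 against 9 and 4). Of all peaks, 17.1% were higher without overlap. The median log2 difference of the 4 was 0.39, beside −0.02 over all peaks, and none of the 4 passed an unadjusted p of 0.05. The list left out other chromatin genes with a TSS-proximal peak. Among them Ep400 (0.82) and Chrac1 (0.08) were above 0, and Mta2 (−0.26) and Eed (−0.21) below. The 4 listed genes thus do not stand for chromatin genes as a class. The variant histone gene H2afy had 9 and 8 in Ctrl against 8 and 14 in Tet3smKO:T, with overlap.

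Of 15 zinc-finger genes, 9 had a log2 difference above 0, and the highest, Zfp213, had 26 and 33 in Ctrl against 21 and 38 in Tet3smKO:T, with Zfp451 next at 19 and 21 against 28 and 20. Of the 8 other transcription factor genes, Tcf12, a basic helix-loop-helix factor like Tcf4, had 19 and 14 in Ctrl against 10 and 8 in Tet3smKO:T, and Etv6, an Ets family repressor, had 14 and 15 against 12 and 22. Tcf12 passed an unadjusted p of 0.05 and not the adjusted threshold. Of the 14 listed genes of splicing and RNA helicases, 2 were higher and 3 lower without overlap, beside 17.1% and 16.6% of all peaks. The list left out the splicing gene U2surp (29 and 23 in Ctrl against 17 and 6 in Tet3smKO:T, log2 difference −1.26). U2surp passed an unadjusted p of 0.05 in limma and not the adjusted threshold, so the list does not stand for splicing genes as a class. Srrm1, a splicing coactivator, had 26 and 33 in Ctrl against 20 and 26 in Tet3smKO:T, and Rbm6, an RNA-binding splicing regulator, had 27 and 35 against 19 and 22.

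Of 6 cytosolic ribosomal protein genes, 4 had a log2 difference below 0 (median −0.32), and of 10 translation factor and tRNA synthetase genes, 7 (median −0.20), where 907 of all 1761 peaks were below 0. Without overlap, 2 of the ribosomal protein genes were higher and 3 lower, and 3 of the translation genes were higher and 2 lower. Of all peaks, 17.1% were higher and 16.6% lower without overlap, and lists of 6 and 10 genes are too small to be read against these shares. Rps3a had 21 and 20 in Ctrl against 14 and 16 in Tet3smKO:T, and Rpl10a, on the other side, had 15 and 9 in Ctrl against 30 and 16 in Tet3smKO:T. The genotypes did not overlap at either of them. Of 7 mitochondrial ribosome genes, 6 were below 0 (median −0.34), with Mrpl12 at 21 and 15 in Ctrl against 12 and 16 in Tet3smKO:T and Mrpl39 at 28 and 20 against 27 and 25. Of 8 genes of the respiratory chain and ATP synthase, 5 were below 0 (median −0.25). Cox7a2, of complex IV, had 27 and 16 in Ctrl against 16 and 29 in Tet3smKO:T, and Ndufs1, of complex I like Ndufs7, had 14 and 19 against 20 and 26, without overlap. Of the other genes of complex I, Ndufa5 had 11 and 10 against 14 and 16, without overlap, and Ndufab1 had 20 and 11 against 18 and 5, with overlap. None of these lists had a member that passed an unadjusted p of 0.05 apart from Ndufs7. The translation list left out Bzw1 (log2 difference −0.81), which passed that threshold and not the adjusted one.

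Of 17 genes of vesicle traffic, 11 were below 0, and Exoc5, of the exocyst, had 27 and 29 in Ctrl against 30 and 35 in Tet3smKO:T. Of 16 ubiquitin genes, 8 lay on each side of 0. The F-box gene Fbxo45 had 33 and 23 in Ctrl against 27 and 35 in Tet3smKO:T and the ubiquitin ligase gene Rnf14 had 26 and 26 against 28 and 36. No member of either list passed an unadjusted p of 0.05, and the 4 listed proteasome genes with an assigned peak had it elsewhere. The proteasome list left out Adrm1 (18 and 10 in Ctrl against 16 and 18 in Tet3smKO:T) and Pomp (20 and 18 against 25 and 29). These had a TSS-proximal peak, so that list does not stand for proteasome genes as a class. The ubiquitin list left out Fem1c (log2 difference −1.22), and the vesicle list left out the Golgi gene Golga5 (0.86). Both passed the unadjusted threshold in limma and not the adjusted one, so these lists do not stand for such genes as a class. The mitochondrial import gene Timm29 had 13 and 20 against 19 and 26, and the carrier gene Slc25a16 had 12 and 15 against 15 and 13, with overlap at both.

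Of 5 DNA repair genes, Ercc6l2 had 35 and 34 in Ctrl against 19 and 46 in Tet3smKO:T, and Ercc4, a nuclease of nucleotide excision repair, had 17 and 13 against 18 and 24. Ercc6l2 shows how far libraries of 1 genotype could differ, since its Tet3smKO:T values lay on both sides of its Ctrl values. Of the 6 genes on the cell-cycle list, Anapc4, of the anaphase-promoting complex, had 15 and 10 against 19 and 17, and the highest, Cdc37l1, which is a cochaperone gene rather than a cell-cycle gene, had 12 and 25 against 12 and 16. Of 5 listed chaperone genes, 4 were above 0. Cct4, of the chaperonin, had 16 and 29 against 18 and 29, and Dnajc2 had 25 and 19 against 26 and 16. That list left out cochaperone genes such as Cdc37l1 (log2 difference −0.31) and Chordc1 (−0.87), which were below 0, so it does not stand for chaperone genes as a class. The host gene of small nucleolar RNAs Snhg20 had 8 and 10 in Ctrl against 21 and 11 in Tet3smKO:T, without overlap. Of 22 predicted and Rik genes, 12 were below 0, and the highest, Gm9887 (24 and 28 against 21 and 26) and Gm10518 (25 and 23 against 21 and 29), overlapped between genotypes.

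No smooth muscle contractile gene had a TSS-proximal peak, although 3 of the 29 listed had a peak elsewhere, and none of 14 genes of the synthetic state and matrix or of 20 genes of TLR7 and interferon signalling had any assigned peak. In all, 157 of the 479 members belonged to at least 1 of the 25 lists, and no member of any list passed the adjusted threshold.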

How the data were processed

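The data analysed were the 4 immunoprecipitated Pol II pSer5 libraries (2 per genotype), and the 4 inputs had no values. Reads were trimmed (with Reaper by the methods, while the submitters' processing notes name Trimmomatic 0.36), deduplicated (Picard 2.17.10) and aligned to mm10 with an aligner that is not given in the sources used here, and peaks were called with MACS2, cleared of blacklisted regions, thresholded by eye, unified and recounted, with input subtracted. The deposited value is a score: a read number that the authors normalised with DESeq2 and rounded to whole numbers. The deposited fraction of each peak inside the gene body, computed by the authors, was not needed. The table's gene coordinates gave the TSS and the signed distance, and 0 columns of per-sample values were unused. Names of 22 members that were blank (20) or stored as dates (2) came from GENCODE M21 by gene identifier.

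Differences were tested with limma 3.58.1 in R 4.3.3 (lmFit, eBayes with trend, two-sided) on log2(value + 1), a scale that understates changes of low peaks, with Benjamini–Hochberg adjustment over 1761 peaks, a threshold of 0.05 and no filter. Library summaries were compared by exact permutation tests, two-sided. Reads were estimated from the spacing of values, and a quasi-Poisson test on them, other scalings, pseudocounts and intervals, and leaving out each library were alternatives. Both fits were first tried on simulated data with known changes. Genes named were the 10 highest members, and 6 higher and 6 lower with the smallest p among those not overlapping. Members of transcription and chromatin lists, and the 2 highest of each other list, were named as well. The extreme, edge, divergent and further-peak examples, Chrac1 and Eif5a, Tcf12 and the genes named as left out of a list were chosen after their values were seen. Members and lists were chosen with earlier results of these data known. Python 3.11.15, numpy 2.4.6, scipy 1.17.1, pandas 2.3.3 and matplotlib 3.10.9 were used.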

Additional observations from a re-analysis of the deposited data

How the results depend on the processing

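The number of members called at an adjusted p of 0.05 was 0 under each alternative, although scaling to the mean total and the quasi-Poisson test each called 6 peaks of the whole table. The 22 members at an unadjusted p under 0.05 became 18 to 31 under the alternatives that kept all libraries and 24 to 39 when a library was left out, with 35 without Ctrl replicate 1 and 39 without Tet3smKO:T replicate 1. In these fits the lone library was assumed to vary like the other genotype. In the alternatives that kept all libraries and all 479 members, the share of members at an unadjusted p under 0.05 was below that of all peaks. It was 3.76% against 4.20% with a replicate block and 6.47% against 10.8% in the quasi-Poisson test. The difference in the share of summed values (0.244 percentage points) ranged from −0.470 to 0.958 when a library was left out and was −0.0890 with the nearest GENCODE M21 start as TSS. The difference in weighted mean distance (−0.0112 nt) ranged from −2.51 to 2.49 nt when a library was left out and was 0.191 nt with the interval ending at 300 nt. The cause was not tested. The difference in the log2 ratio to upstream peaks stayed above 0 throughout (0.0128 to 0.0451). The interval held 422 peaks up to 300 nt, 531 up to 1000 nt and 377 with the GENCODE M21 start. Of these, 20, 25 and 21 had an unadjusted p under 0.05 in limma, counts that cannot be set directly beside the 22 of 479. With the number as a replicate block, limma called 0 members (18 at an unadjusted p under 0.05), and deviations of same-numbered libraries correlated with r = −0.06, so the libraries are not known to be paired. Low read numbers limit what single peaks can show. On the estimated reads, the variance between replicates was 1.30 times that of counting. The estimate takes each value as a read number times a library factor and makes no allowance for input subtraction.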

Other observations

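Of the genes with a TSS-proximal peak, 10 had a further peak assigned to them, 9 of them inside the gene beyond 500 nt and 1 upstream. For Eef1a1, the elongation factor gene, the further peak lay 726 nt downstream of the TSS and had 63 and 96 in Ctrl against 50 and 68 in Tet3smKO:T, with overlap as at the TSS-proximal peak. For Tcf4 the further peak lay 71521.5 nt downstream and had 5 and 9 in Ctrl against 12 and 16 in Tet3smKO:T, which did not overlap, while the TSS-proximal peak had 41 and 34 against 42 and 35. For Apbb2, which encodes an amyloid precursor-binding protein, a peak at 46128.5 nt had 4 and 4 in Ctrl against 10 and 6 in Tet3smKO:T, and the TSS-proximal one 24 and 31 against 30 and 25. For Dock4, a guanine nucleotide exchange factor, the order was the other way: the peak at 113291 nt had 21 and 21 against 16 and 19, and the TSS-proximal one 9 and 9 against 12 and 16. For Zfat the further peak, at −95 nt, had 31 and 38 in Ctrl against 21 and 18 in Tet3smKO:T, and the TSS-proximal one 14 and 10 against 10 and 14. The log2 difference of the further peak was above 0 for 5 of the 10 genes. Of all peaks, 17.1% were higher and 16.6% lower without overlap, and 10 genes are too few to be read against these shares. The difference between the 2 positions was not tested for any gene.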
